A study of Homo sapiens with 4 samples.

Results

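The genes described here are those of the endoplasmic reticulum (ER) chaperones and the unfolded protein response, 32 genes chosen by name. They were followed through every probe set whose only gene symbol in the platform annotation is 1 of these names. That gave 79 of the 54613 probe sets tested, for 31 of the 32 genes, out of 19775 genes in all. The gene left over is SYVN1, whose probe set is annotated to a microRNA gene as well.

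Gene expression was read on 4 Affymetrix 3' arrays from LN-229 cells, a human glioblastoma line. WIF1 is a secreted protein that binds WNT ligands outside the cell. In 2 arrays (induced) the cells had received doxycycline for 48 h to express WIF1, and in 2 arrays (control) they had received none. The control is described as non-induced, and whether its cells carry the same construct is not said. The labels call the replicates biological and do not say whether the line is 1 clone. No array had doxycycline without WIF1 induction, so effects of the drug and of WIF1 cannot be told apart.

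The values are log2 intensities, so a difference of 1 is a doubling, and each difference is the induced mean less the control mean (n = 2 arrays a group). The array medians were 6.15 and 6.15 in induced cells, against 6.16 and 6.19 in control cells. The probe set for WIF1 read 2.93 and 3.03 in induced cells and 2.98 and 2.90 in control cells, near the floor of the array, so it gives no check of the induction. Of 10 markers of glioma and astrocytes 9 reached the median level of the arrays (6.16), and the exception was the astrocyte filament gene GFAP. The mean level of these 10 markers was 10.59 to 10.61 in induced cells and 10.65 to 10.70 in control cells. At an unadjusted p under 0.05, 4 of the 10 were lower (40%), against 4.73% of all genes. Of the measured markers of other cell types, 2 of 4 for leukocytes, 2 of 4 for endothelium, 1 of 4 for epithelium, 5 of 7 for mesenchyme and 5 of 5 for neurons reached the median level. The mean level of the leukocyte markers was 5.76 to 5.84 in induced cells and 5.80 to 5.84 in control cells, and that of the endothelial markers 5.24 to 5.25 in induced cells and 5.19 to 5.32 in control cells. For the epithelial markers it was 5.04 to 5.10 in induced cells and 5.07 to 5.15 in control cells. The mesenchymal markers averaged 7.64 to 7.69 in induced cells and 7.65 to 7.67 in control cells, with the matrix gene LUM at a difference of 0.34. The neuron markers averaged 7.85 to 7.87 in induced cells and 7.77 to 7.78 in control cells, with the synaptic vesicle gene SYT1 at 0.35. The part of these markers in the differences of the ER genes was not tested. On bulk RNA of this kind, less RNA per cell and fewer cells with a transcript cannot be told apart.

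Secreted and membrane proteins are folded in the ER by chaperones of the HSP70, HSP90 and lectin families and by enzymes that form disulfide bonds. When unfolded proteins pile up there, the sensors IRE1 (gene ERN1), PERK (gene EIF2AK3) and ATF6 become active. IRE1 splices the mRNA of XBP1 so that it encodes an active transcription factor, ATF6 is cut to release another, and PERK slows translation and raises ATF4. The transcription factors made in this way raise chaperones and the machinery that sends misfolded proteins to the proteasome, and BiP (gene HSPA5) is known to be high in many glioblastomas.

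Many of these genes carry an ER stress response element (ERSE) before their start site, where the factor NF-Y binds the CCAAT part and ATF6 the CCACG part. The element was itself defined on genes of this kind, so its presence among them is no finding. It is shown because it gives the members a shared sequence feature beside their values. RefSeq promoters on build GRCh38.p14, from 250 bases before to 50 bases after the start, were found for 30 of the 32 genes. The full element was searched on both strands as CCAAT and then CCACG with any 9 bases between them. It stood in the promoters of 25 of all 27305 genes with a promoter (0.0916%), among them 8 of the 30 members. Their sites are printed below, each read in the direction of the element, with the fixed letters in capitals.
XBP1 (chr22:28800603-28800621, minus strand): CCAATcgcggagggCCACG
HSPA5 (chr9:125241391-125241409, minus strand): CCAATcggcggcctCCACG
HSP90B1 (chr12:103930216-103930234, plus strand): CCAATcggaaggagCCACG
HSP90B1 (chr12:103930321-103930339, minus strand): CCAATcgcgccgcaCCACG
CALR (chr19:12938384-12938402, minus strand): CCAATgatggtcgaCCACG
CANX (chr5:179698778-179698796, plus strand): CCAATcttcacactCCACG
PDIA6 (chr2:10812853-10812871, minus strand): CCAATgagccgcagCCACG
ERO1B (chr1:236282183-236282201, plus strand): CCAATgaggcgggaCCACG
CRELD2 (chr22:49918554-49918572, minus strand): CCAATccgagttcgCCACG

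The shorter element ERSE-II is ATTGG and then CCACG with any 1 base between them, on either strand. It stood in the promoters of 19 of the 27305 genes (0.0696%), among them the members HERPUD1, HYOU1 and SDF2L1. The 120 bases just before the start sites are printed for XBP1, the member with the highest difference, for HSPA5, the classical ERSE gene, and for HERPUD1, which has the ERSE-II. The fixed letters of the elements are in capitals.
XBP1 (chr22:28800570-28800689, minus strand): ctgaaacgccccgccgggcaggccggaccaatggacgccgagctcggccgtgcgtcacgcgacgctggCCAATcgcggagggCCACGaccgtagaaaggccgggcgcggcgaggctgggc
HSPA5 (chr9:125241344-125241463, minus strand): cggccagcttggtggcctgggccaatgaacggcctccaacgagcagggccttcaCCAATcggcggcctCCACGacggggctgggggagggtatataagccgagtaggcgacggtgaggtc
HERPUD1 (chr16:56932022-56932141, plus strand): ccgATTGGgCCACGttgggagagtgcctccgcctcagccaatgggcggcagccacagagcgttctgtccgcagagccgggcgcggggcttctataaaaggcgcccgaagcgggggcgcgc

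The comparison asks whether the ER folding and stress genes differ in level between cells induced to express WIF1 and control cells. XBP1 was 1.35-fold higher in induced cells, while HSPA5, CALR and CANX lay within a few percent of control cells by their brightest sets. HSP90B1 was at 0.859-fold by its brightest set with a single gene symbol, and its other sets lay nearer to control cells. The 30 genes other than XBP1 lay between 0.849-fold and 1.11-fold. No member passed the test: limma called 0 of 79 member probe sets at an adjusted p under 0.05, with adjusted p values from 0.413 to 1, and 0 of all 54613 (0%). At an unadjusted p under 0.05, 2 of 31 member genes were higher (6.45%) and 6 were lower (19.4%). Over all 19775 genes these shares were 6.48% higher and 4.73% lower, so the share of higher members is that of the background and the share of lower members is above it. The lower count was not stable, with 3 after centring arrays on their medians, 1 in the fit without the intensity trend and 7 after cyclic loess.

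The sensors and XBP1 did not share a direction. XBP1 read 9.87 and 9.91 in induced cells and 9.56 and 9.35 in control cells. Both induced arrays were above both control arrays, and the control arrays differed from each other by less than the gap between the groups. The difference was 0.44 (SE 0.073, 95% interval 0.26 to 0.61, adjusted p = 0.413), which ranked as the 86th highest of the 19775 genes. Its unadjusted p stayed under 0.05 in each of the 13 alternatives that gave it a value, although none brought the adjusted p under that threshold. The other XBP1 probe set, which is dimmer than the median of all probe sets, read 5.82 and 5.75 in induced cells and 5.73 and 5.84 in control cells. That set showed no separation of the groups, at 0.0035, and averaging the pair lowered the difference of XBP1 to 0.22. Where on the mRNA either set lies is not known here, so spliced and unspliced XBP1 could not be told apart.

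ERN1, the gene of the IRE1 kinase and nuclease that splices XBP1, read 7.33 and 7.14 in induced cells and 7.41 and 7.51 in control cells by its brightest probe set. Both induced arrays were below both controls, a difference of -0.23 (SE 0.088, adjusted p = 0.490). Its other 2 probe sets gave -0.022 and 0.17, so the sets of this gene disagreed in sign. The difference was -0.13 without the second induced array and -0.027 with the sets averaged. EIF2AK3, the gene of PERK, read 8.60 and 8.60 in induced cells and 8.59 and 8.48 in control cells. The induced values lay just above the higher control, at 0.066 (SE 0.059, adjusted p = 0.720), and the dim second set gave -0.29. ATF6 read 9.18 and 9.13 in induced cells and 9.27 and 9.13 in control cells. These groups overlapped, the difference was -0.049 (SE 0.062, adjusted p = 0.808), and the other 3 probe sets of ATF6 lay between -0.034 and 0.0079.

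**Figure D1:**
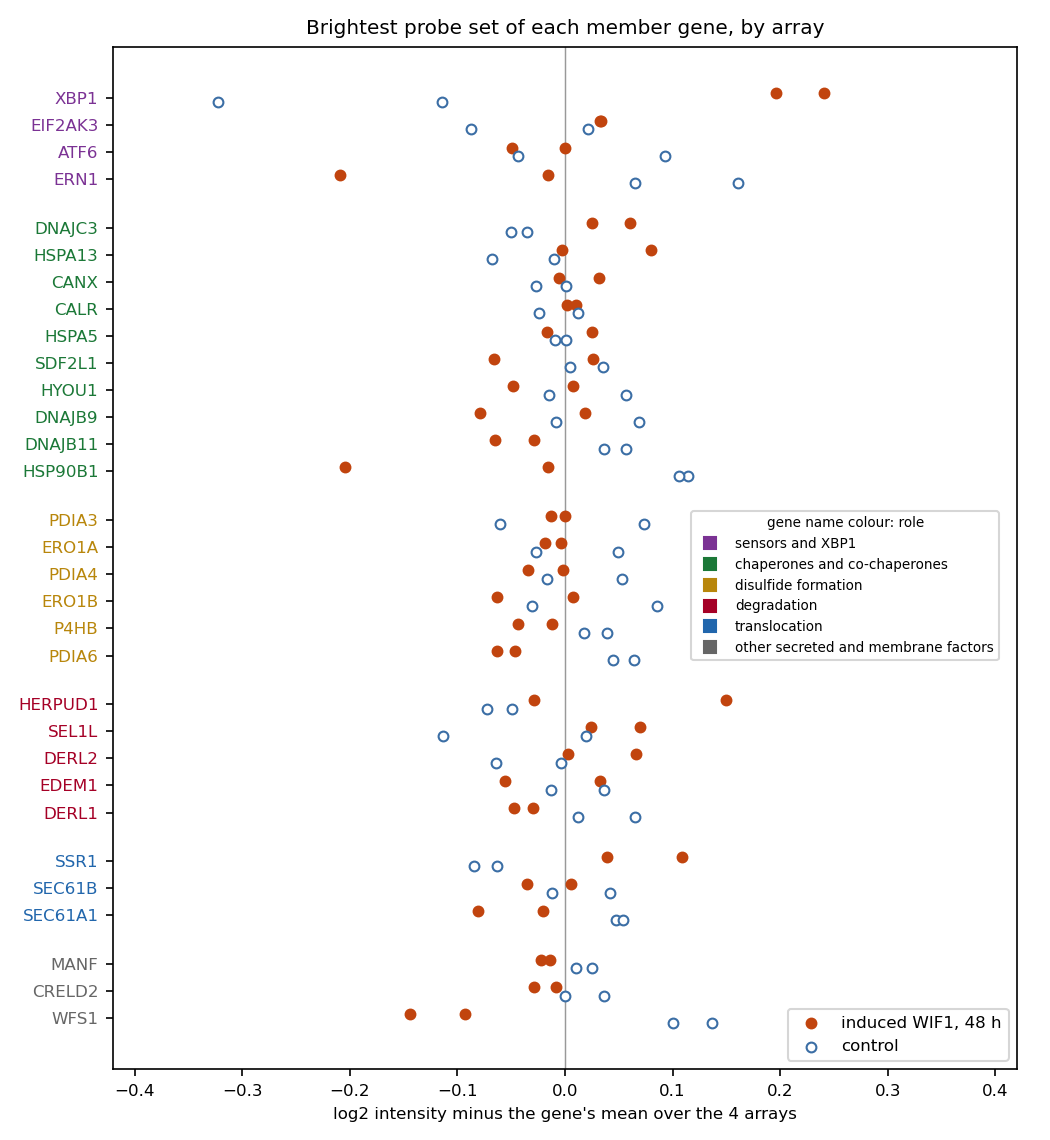
Log2 intensity of the brightest probe set of each of the 31 measured genes in each array, minus the mean of that gene over the 4 arrays (x axis, log2 units), with filled points for the 2 induced arrays and open points for the 2 control arrays. Genes are grouped by role, shown by the colour of the name. XBP1 has the widest separation, with induced values of 9.87 and 9.91 against 9.56 and 9.35 in control cells, and most other genes have groups that overlap or lie close together.

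The chaperones, which hold unfolded chains and help them fold, were centred near 0. The median difference over the 10 genes was -0.016, against -0.0030 over all genes, and 5 were higher and 5 lower by sign. That median was 0.0090 after centring arrays on their medians and 0.0041 without the first control array. It was -0.036 after cyclic loess, where 2 of the 10 were higher and 8 lower, and -0.030 without the first induced array. HSPA5 encodes BiP, the ER member of the HSP70 family and the usual readout of the response. It read 12.68 and 12.72 in induced cells and 12.70 and 12.69 in control cells. The control values lay inside the range of the induced ones, and the difference was 0.0087 (SE 0.029, adjusted p = 0.942). The 95% interval of the HSPA5 ratio was 0.958-fold to 1.06-fold. Its second set gave -0.076.

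HSP90B1 encodes GRP94, the ER member of the HSP90 family. By its brightest probe set with a single gene symbol it read 11.60 and 11.41 in induced cells and 11.73 and 11.72 in control cells. Both induced arrays were lower, a difference of -0.22 (SE 0.062, adjusted p = 0.472), with most of it in the second induced array, and -0.13 without that array. The other such set gave -0.0067. The suffix of both names (x_at) marks sets with probes that match other transcripts too. HSP90B1 also has 2 brighter sets that the annotation shares with the microRNA gene MIR3652, and they gave -0.057 and -0.18. The brighter of that pair read 12.49 and 12.53 in induced cells and 12.58 and 12.56 in control cells, where both induced arrays were again lower but by less.

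DNAJB11, a soluble co-chaperone of BiP, read 12.04 and 12.08 in induced cells and 12.14 and 12.16 in control cells. The groups were close but separate, with a difference of -0.093 (SE 0.031, adjusted p = 0.472). The other co-chaperones of BiP were DNAJC3 at 0.085, which also inhibits PERK and whose other 3 sets lay from -0.14 to -0.13, DNAJB9 at -0.060 and SDF2L1 at -0.040. The other DNAJB9 sets gave 0.00064 and 0.029. The lectin chaperones calreticulin (CALR) and calnexin (CANX), which fold glycoproteins, stood at 0.012 and 0.026. A second CALR set, also marked x_at, read 9.86 and 9.81 in induced cells and 9.63 and 9.61 in control cells, a difference of 0.21 that the brightest set did not show. The brightest CALR set is marked x_at as well, and the remaining CALR set gave 0.084. The other 4 CANX sets were all below 0, from -0.18 to -0.081. HYOU1, a large HSP70-like nucleotide exchange factor, was at -0.041, and HSPA13, a microsomal HSP70-like protein, at 0.078. The other HSPA13 set gave -0.086.

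The enzymes of disulfide formation stood slightly lower by sign, with all 6 genes below 0 and a median of -0.046, while 10128 of all 19775 genes (51.2%) were below 0. After centring arrays on their medians 4 of the 6 were below 0 and the median was -0.021. Without the first control array the median was -0.024, and without the first induced array it was -0.025. PDIA6, a protein disulfide isomerase, read 12.76 and 12.74 in induced cells and 12.87 and 12.85 in control cells. The arrays of each group lay closer to each other than to the other group, and the difference was -0.11 (SE 0.027, adjusted p = 0.472). The other 3 PDIA6 sets gave -0.11, -0.049 and -0.000098. The brightest PDIA6 set and the set at -0.049 are marked x_at, and the set at -0.000098 is not. P4HB, the archetypal protein disulfide isomerase, read 12.90 and 12.87 in induced cells and 12.95 and 12.93 in control cells, a difference of -0.057 (SE 0.028, adjusted p = 0.540). Its groups did not overlap, and its other 2 sets gave -0.10 and -0.031. The isomerases PDIA3, which works with the lectin chaperones, and PDIA4 stood at -0.013 and -0.036. The other PDIA3 sets gave -0.068 and -0.057, and the other PDIA4 set gave -0.10. The oxidases that recharge these enzymes stood at -0.022 for ERO1A and -0.055 for ERO1B, whose other set gave -0.023. The dimmest ERO1A set read 8.32 and 8.30 in induced cells and 8.51 and 8.51 in control cells, a difference of -0.20 that its brightest set did not show. The remaining ERO1A set gave -0.096.

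The genes of ER-associated degradation, which carries misfolded proteins back to the cytosol, had a median of 0.069 over 5 genes, and none had an unadjusted p under 0.05. HERPUD1, a stress-inducible scaffold of the degradation complex, read 10.36 and 10.54 in induced cells and 10.34 and 10.32 in control cells. The first induced array was close to the controls and the second was higher, for a difference of 0.12 (SE 0.063, adjusted p = 0.553). Its second set, below the median of all probe sets, gave -0.12. DERL1, a derlin of the retrotranslocation channel, read 9.71 and 9.69 in induced cells and 9.75 and 9.80 in control cells. Its groups did not overlap, at -0.078 (SE 0.045, adjusted p = 0.580), while the other 3 sets ran from -0.098 to 0.19. DERL2 was at 0.069 and the adaptor SEL1L at 0.094, but the other 3 SEL1L sets lay from -0.23 to -0.095. The other DERL2 set gave -0.020. EDEM1, which hands glycoproteins to degradation, was at -0.023. The set that SYVN1, the ubiquitin ligase of this complex, shares with MIR6751 read 8.63 and 8.61 in induced cells and 8.70 and 8.69 in control cells, a difference of -0.073 (SE 0.051, adjusted p = 0.637).

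The degradation median depended on which probe sets were read. With all probe sets of a gene averaged it was -0.0014 in place of 0.069. It was 0.027 without the second control array, 0.032 without the second induced array and 0.023 with the shared SYVN1 set added. Averaging the sets of a gene moved the chaperone median to -0.041 and the translocation median to -0.11.

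**Figure D2:**
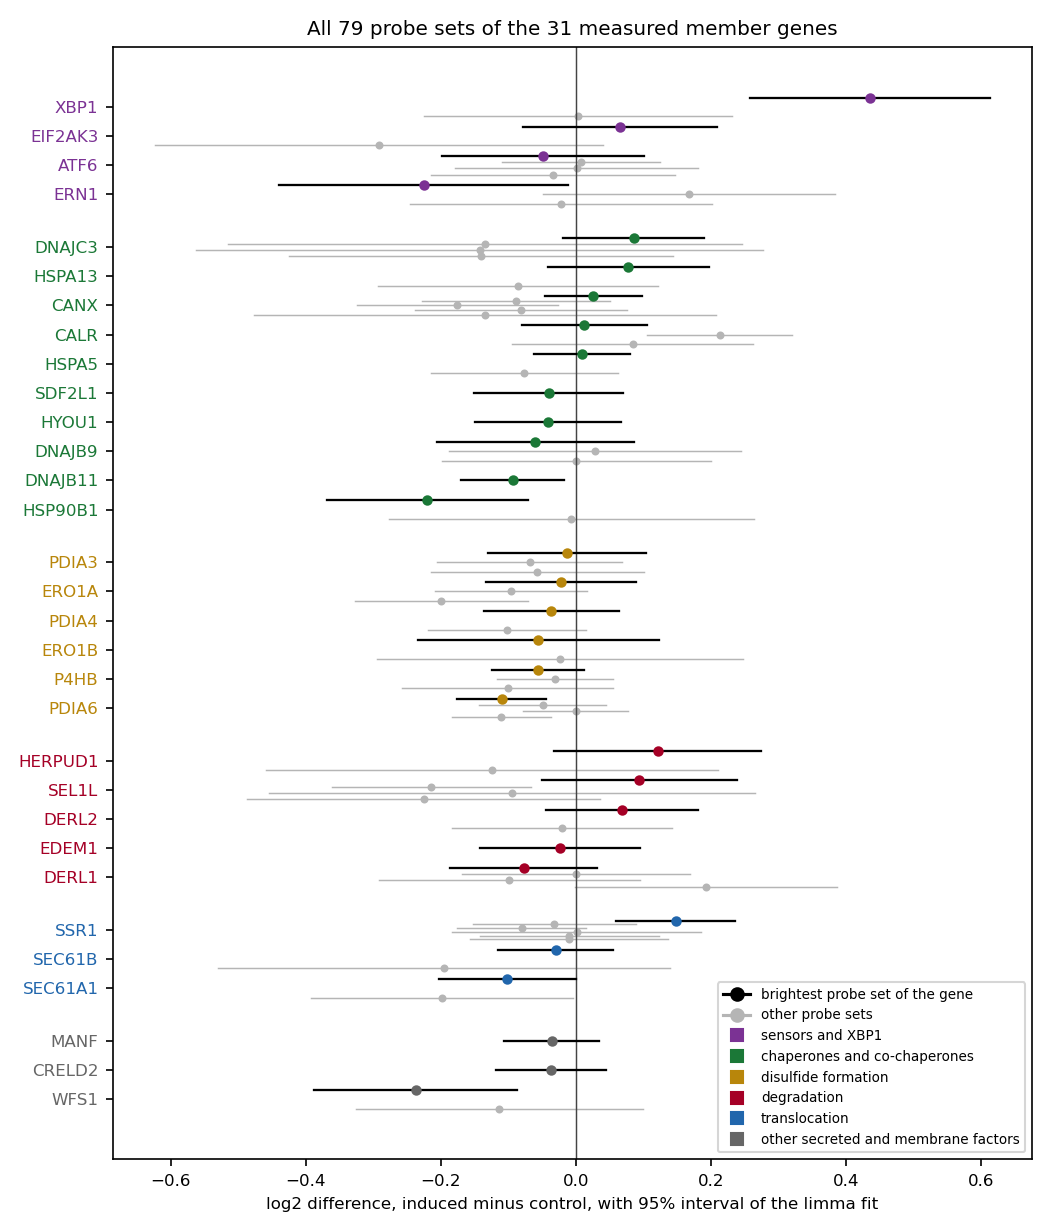
Log2 difference, induced minus control (x axis), of all 79 probe sets of the 31 measured genes, with the 95% interval of the limma fit as a line. The brightest set of a gene has a black line and a coloured point, and its other sets are grey. The XBP1 set at 0.44 stands apart, and in genes such as ERN1, SEL1L and SSR1 the sets lie on both sides of 0.

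Translocation genes split. SSR1, a subunit of the translocon-associated complex, read 11.99 and 12.06 in induced cells and 11.86 and 11.88 in control cells. Both induced arrays were higher, with a difference of 0.15 (SE 0.036, adjusted p = 0.472), but the other 5 SSR1 sets lay between -0.080 and 0.0010. SEC61A1, the pore of the translocon, read 10.33 and 10.26 in induced cells and 10.39 and 10.40 in control cells. Both induced arrays were lower, at -0.10 (SE 0.042, adjusted p = 0.499), and the second set, marked x_at, pointed the same way at -0.20. The small subunit SEC61B was at -0.030, and its dim second set gave -0.20.

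Of the remaining members, WFS1, an ER membrane protein lost in Wolfram syndrome, read 7.64 and 7.59 in induced cells and 7.83 and 7.87 in control cells. Both induced arrays were below both controls, at -0.24 (SE 0.062, adjusted p = 0.472), and the dimmer set gave -0.11. MANF, a secreted neurotrophic factor raised by ER stress, read 12.15 and 12.14 in induced cells and 12.18 and 12.17 in control cells. Its groups did not overlap but differed by -0.036 (SE 0.029, adjusted p = 0.689). CRELD2, another secreted stress-inducible protein, was at -0.037.

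Over the 31 genes the median difference was -0.036, with 11 higher and 20 lower by sign. The lower count was 17 after centring arrays on their medians and 23 after cyclic loess, and the median was -0.0027 without the first control array. The arrays did not overlap in 8 higher and 10 lower member genes (25.8% and 32.3%), against 21.4% and 22.4% of all genes. The 95% interval lay within 0.25 log2 units of 0 for 26 of the 31 genes, a size chosen after the values were seen. Of 25 genes with more than 1 probe set, all sets had the same sign in 12. The interval count and this sign count were not made over all genes, so neither sets the members apart from other genes.

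The ERSE was looked up after values were seen. By their brightest sets the 8 genes with the printed ERSE had differences from -0.22 (HSP90B1) to 0.44 (XBP1). Those other than XBP1 reached up to 0.026 (CANX) by these sets. The second XBP1 set stood at 0.0035, and the other CALR sets at 0.21 and 0.084. The other 4 CANX sets lay from -0.18 to -0.081, and the other sets of HSPA5, HSP90B1, PDIA6 and ERO1B were all below 0. The 3 genes with the ERSE-II ran from -0.041 (HYOU1) to 0.12 (HERPUD1) by their brightest sets, and the second HERPUD1 set gave -0.12.

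Related genes that are no members were read from lists of names chosen with earlier results of these data known. Each gene was read by its brightest probe set only. Their counts are those at an unadjusted p under 0.05, where 6.48% of all genes were higher and 4.73% lower. UPR signalling genes had a median of 0.033 over 15 genes, with 3 higher (20%) and 0 lower (0%) by the unadjusted p. PPP1R15A and PPP1R15B, which end the translation block of PERK, were at 0.30 (SE 0.058) and 0.22 (SE 0.079), with adjusted p values of 0.472 and 0.473. Genes of glycosylation, quality control and folding had a median of -0.012 over 26 genes. Of these 0 were higher (0%) and 2 lower (7.69%), SIL1 at -0.17 and RPN1 at -0.087. Further degradation genes had a median of -0.013 over 19 genes. Of these 1 was higher (5.26%), HERPUD2 at 0.25, and 5 were lower (26.3%), among them NPLOC4 at -0.19. Further genes of translocation and signal peptide cleavage had a median of 0.037 over 21 genes. Of these 1 was higher (4.76%), SRP19 at 0.19, and 0 were lower (0%).

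PERK and other kinases of the same translation factor can raise the factors ATF4 and CHOP (gene DDIT3), which stood at 0.10 and 0.48. These factors and their target genes, a list also chosen with earlier results known, had a median of 0.21 over 15 genes. By the unadjusted p 10 were higher (66.7%) and 0 lower (0%), beside 6.48% and 4.73% of all genes, and none passed the adjusted threshold. Whether PERK or another such kinase acts on them in these cells was not measured. Among them CTH, an enzyme of cysteine synthesis, was at 1.27 and ATF3, a stress-inducible repressor, at 0.57. COPII coat genes, which carry folded proteins out of the ER, had a median of 0.086 over 15 genes. By the same p 4 were higher (26.7%) and 0 lower (0%), led by SEC24D at 0.75 and SAR1B at 0.29. Cytosolic heat shock proteins had a median of 0.0054 over 15 genes. Of these 1 was higher (6.67%), HSPH1 at 0.20, and 1 was lower (6.67%), HSP90AB1 at -0.090. Differences between these lists were not tested.

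**Figure D3:**
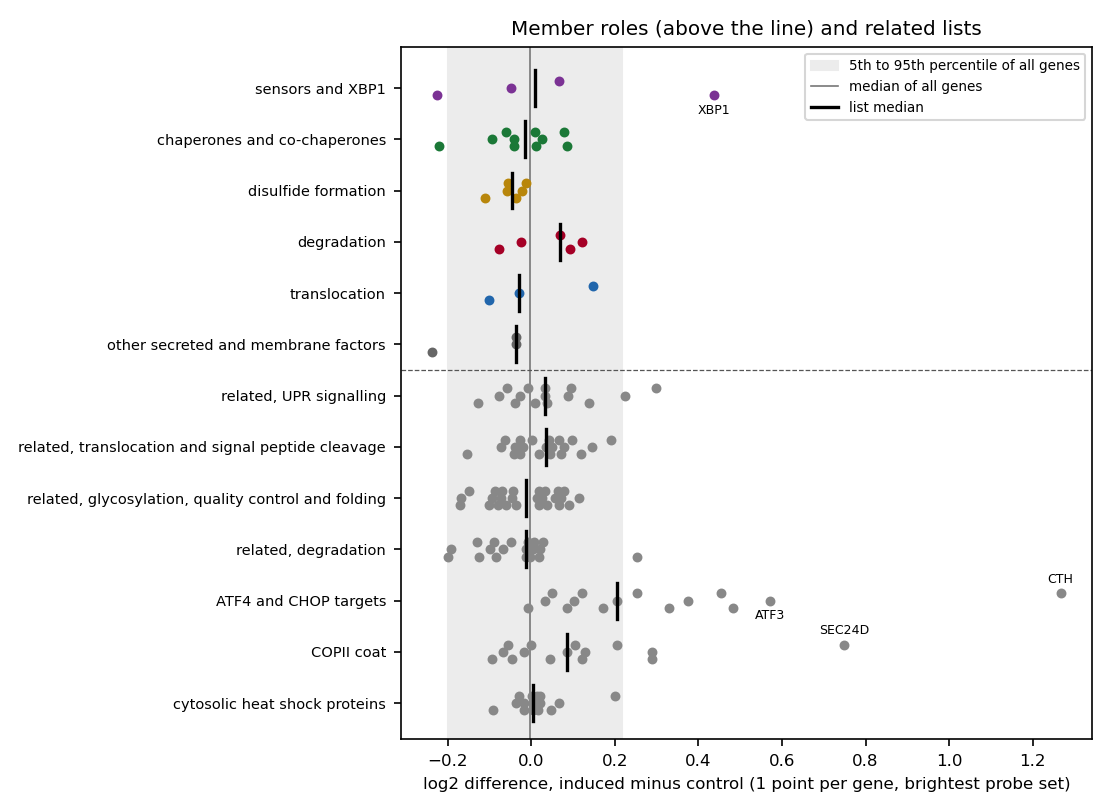
Log2 difference, induced minus control (x axis), with 1 point per gene by its brightest probe set, for the 6 roles of the ER members above the dashed line and related lists below it. Black bars are list medians, the grey band spans the 5th to 95th percentile of all genes (-0.20 to 0.22) and the thin line is their median. Apart from XBP1, ERN1, HSP90B1 and WFS1 the ER members lie inside the band. The list labelled ATF4 and CHOP targets, which also holds both factors, has its median at 0.21.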

How the data were processed

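The deposited values are log2 intensities of probe sets. The submitters' processing notes name RMA and the package affy for them, with no version in the sources used here. RMA equalises the distributions of the arrays, so a change shared by most genes would not be seen. From the 54675 rows of the authors, 62 control sets were left out of the fit. The platform annotation gives 41091 sets 1 gene symbol, 1801 several and 11721 none. A gene was read by the brightest of its sets, averaged over the arrays.

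Groups came from the sample titles. The test was limma 3.58.1 (R 4.3.3; lmFit and eBayes with an intensity trend, 2-sided, 6.27 degrees of freedom), with Benjamini-Hochberg adjustment over 54613 probe sets at a threshold of 0.05. The number of arrays limits the precision. The fit was tested on simulated data with known changes. The alternatives changed the variance prior, the filter on dim sets, the normalisation, the reading of several sets per gene, the replicate block and the arrays used. Members, roles, lists and alternatives were chosen with earlier results of these data known, so no p over a list is given. Array values are given for the sensors and XBP1, HSPA5, HERPUD1, the 2 members of smallest p in each other role, and each member with an unadjusted p under 0.05. From each related list up to 2 genes of smallest p were named. Other single probe sets and the ERSE elements were picked after values were seen. Promoters are from RefSeq (GRCh38.p14).

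Equal replicate numbers are not said to mark a shared batch. The replicate differences of the groups correlated at 0.056 over all probe sets and at 0.22 over the 79 member probe sets. With 2 pairs that decides nothing, and since the labels name no shared batch the arrays were not treated as pairs.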

Additional observations from a re-analysis of the deposited data

Results flagged for a closer look

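Outside the comparison, the GAPDH control probe sets gave a log2 signal at the 3' end, less that at the 5' end, of -0.043 and -0.047 in induced cells and -0.067 and -0.069 in control cells. It was higher in both induced arrays by more than the gap within either group, with a difference of the group means of 0.023. For ACTB the same measure was 0.033 and 0.11 in induced cells and -0.036 and 0.021 in control cells. For the spiked-in dap RNA it was 2.66 and 2.93 in induced cells and 2.59 and 2.69 in control cells, where the groups overlapped. The part of such end bias in the member differences was not tested.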

How the results depend on the processing

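No alternative brought a member probe set under its adjusted threshold, including a threshold of 0.1 in place of 0.05, so that count stayed at 0 in all of them (also 0 for each array left out). The count of lower member genes at an unadjusted p under 0.05 was 6 as reported. It was 1 in eBayes without the trend, 3 after centring arrays on their medians and 7 after cyclic loess. The count of higher members, 2 as reported, was 1 without the trend and ran from 2 to 3 when 1 array was left out. The median of member genes, -0.036 as reported, was -0.011 after median centring, which moved the median of all genes to 0.022. After cyclic loess the member median was -0.049. It ran from -0.026 to -0.0027 when 1 array was left out, nearest to 0 without the first control array. With the replicate number as a block the lower count was 4, and XBP1 had an adjusted p of 0.587. In this balanced design the block leaves every difference as it is. The block changed no call. Of 195 values of 15 named members under alternatives, 7 changed sign. Many of the 195 could not change: the block, the variance prior and the filters on dim sets left each of these differences as it was. Adding the shared sets changed only HSP90B1 among the named members. HSPA5 was -0.020 after cyclic loess and -0.034 with probe sets averaged per gene, and ran from -0.012 to 0.030 when 1 array was left out. ATF6 ran from -0.12 to 0.020 when 1 array was left out. With averaged probe sets EIF2AK3 was -0.11, HERPUD1 -0.0014 and DERL1 0.0040. The causes were not tested. The count of probe sets was not computed for averaged genes. Adding the probe sets shared with a microRNA gene, an alternative chosen after seeing the data, gave 5 lower members and -0.057 for HSP90B1. Where 1 array was left in a group, its spread is taken from the other group.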
